A study of Mus musculus with 24 samples.

Results

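Imprinted genes are expressed, in at least some tissues, from the copy inherited from 1 parent. Accessible chromatin at 39 of them was followed through haematopoietic stem and progenitor cells of mice that lacked Daxx, a chaperone of histone H3.3, or both Daxx and Pu.1. The 39 genes were taken from a fixed list of names, with no measured value as a criterion, although earlier results of these data were known. All 39 were found among the 55413 genes of the GENCODE annotation (mm10). Each gene was examined with 10 kb on both sides, and genes whose windows overlapped were joined, which left 27 loci on 10 chromosomes. Of the 39 genes, 31 code for proteins and 8 are noncoding RNAs.

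Imprinting rests on control regions whose DNA is methylated in only the egg or only the sperm and keeps that mark in the cells of the body. The zinc finger protein Zfp57 binds the methylated copy and recruits Trim28 and H3K9 methylation, whereas the insulator protein Ctcf binds the unmethylated copy of some regions, such as the one upstream of H19. In embryonic stem cells, Atrx, Daxx and H3.3 are found at the methylated copy of such regions. In blood, Cdkn1c, H19, Igf2, Dlk1 and Gtl2 (Meg3) are known from studies of stem cell quiescence and self-renewal.

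ATAC-seq uses a transposase, Tn5, that inserts adapters where DNA is accessible, and was the assay throughout. The study had 24 libraries in 11 groups, all from sorted bone marrow of C57BL/6 mice that carried a Cre transgene in controls and knockouts alike. Long-term haematopoietic stem cells (LT-HSCs), common myeloid progenitors (CMPs) and GMPs (granulocyte-monocyte progenitors) without a time label came from Rosa26CreERT2 mice, killed 3 weeks after tamoxifen according to the methods, with 2 Daxx-WT (Daxx +/+) and 2 Daxx-KO (Daxx F/F, both alleles floxed) libraries each. LT-HSCs collected 3 d.p.i. (days post induction with tamoxifen, the same Cre line) had 2 Daxx-WT and 3 Daxx-KO libraries. KLS cells (c-Kit+ Lin- Sca-1+) collected 3 w.p.i. (weeks post induction with pI:pC, Mx1Cre) had 2 Daxx-WT, 3 Daxx-KO and 2 DKO libraries, and DKO mice carried floxed alleles of both Daxx and Pu.1 (Spi1). The Mx1 promoter answers to interferon, and pI:pC, an inducer of interferon, was given to the controls as well. The methods give an age range at treatment for the study as a whole and none per group. Both Daxx-WT libraries at 3 d.p.i. are labelled Daxx +/+, although a legend in the study lists 1 of the controls as carrying a floxed allele. Reads were not split by parent, so the values sum both copies of every imprinted gene. Whether each member is imprinted in these cells was not examined. In such sorted populations, fewer cells with an open site and a less open site in every cell cannot be told apart.

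Each group had 1 peak list, and the lists held 22156 to 70455 peaks. The tables of differential sites list selected windows of LT-HSCs 3 d.p.i. and of KLS cells, with reads divided by a constant for each library (scaled reads), and the mean number of reads per window of 600 bp ran from 4.21 to 16. The promoters of Daxx and Spi1 had a peak in every list, and the sites listed over Daxx had log2 differences of -1.79 in LT-HSCs 3 d.p.i. and of -2.02 and -2.72 in Daxx-KO KLS cells. In DKO cells the Daxx sites differed by -1.72, -2.87 and 0.94, and of 8 sites at Spi1 1 was lower, at -3.37, and 7 were higher. Spi1, which is not targeted in Daxx-KO mice, had only lower sites there. They differed by -1.21 in LT-HSCs 3 d.p.i. and by -1.01, -1.06, -1.36, -1.41 and -1.20 in Daxx-KO KLS cells. Of 8 stem and progenitor markers, 4 to 7 had a promoter peak, with none at Ly6a in any list, and of 8 markers of other cells 1 to 4 had one. Promoters of 5 granulocyte and monocyte markers had a peak at all 5 in both GMP lists and at 1 to 4 in the others.

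The control region between 2 and 4 kb upstream of H19 (chr7:142580143-142582143, mm10) is methylated on the paternal copy, and on the maternal copy it binds Ctcf and keeps Igf2 from its enhancers. It held 5 matches to GGNGGCAG, the most constant letters of the Ctcf motif, all on the minus strand, the strand of H19. The stretches around them are shown because peaks came and went exactly here, with the match in capitals.
H19 control region, chr7:142580283-142580342, minus strand: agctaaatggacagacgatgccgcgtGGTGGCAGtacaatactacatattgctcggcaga
H19 control region, chr7:142580738-142580797, minus strand: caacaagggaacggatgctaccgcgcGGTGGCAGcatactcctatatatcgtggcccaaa
H19 control region, chr7:142581764-142581823, minus strand: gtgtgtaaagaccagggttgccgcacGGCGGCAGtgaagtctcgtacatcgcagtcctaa
H19 control region, chr7:142581883-142581942, minus strand: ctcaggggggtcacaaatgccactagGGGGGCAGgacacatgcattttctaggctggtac
H19 control region, chr7:142582008-142582067, minus strand: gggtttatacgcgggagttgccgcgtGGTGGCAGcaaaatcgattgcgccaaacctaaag

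The region was open at both ends in LT-HSCs. The 4 LT-HSC lists, with and without Daxx and at both times, each held 2 peaks, 1 over the 2 matches nearer to H19 and 1 over the other 3. CMPs with Daxx also had 2 peaks and GMPs with Daxx had 1, over the nearer matches. Daxx-KO CMPs and Daxx-KO GMPs had none. Among KLS lists, Daxx-KO cells had 1 peak over the nearer matches, and Daxx-WT and DKO cells had none. The nearer 2 matches therefore lay in a peak in 7 of the 11 lists and the farther 3 in 5. The region also held 5 matches to TGCCGC, the Zfp57 motif, of which 1 overlaps a GGNGGCAG match on the other strand. No differential site was listed in the region in any table. The lists without a peak here were short, with 50590 peaks in Daxx-KO CMPs and 49677 in Daxx-KO GMPs against 66070 and 65306 in Daxx-WT. Daxx-WT KLS cells had 33325 peaks and DKO cells 22156, against 44694 in Daxx-KO KLS cells. Over all genes, 3.15% in CMPs and 2.7% in GMPs had a promoter peak in Daxx-WT alone. The part of list size was not tested.

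**Figure D1:**
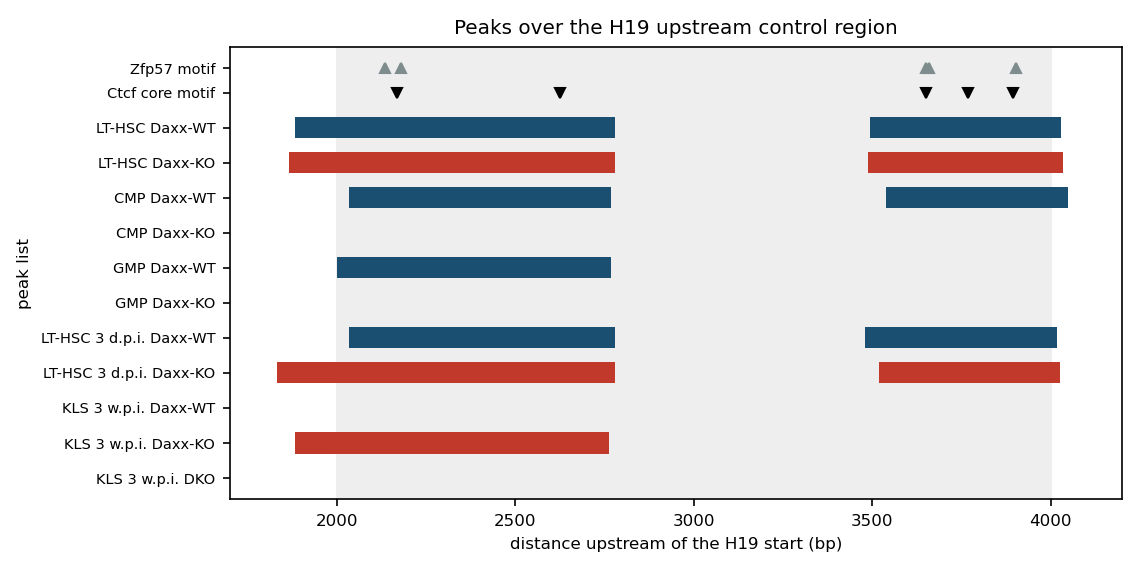
Peaks over the H19 upstream control region (grey, 2000 to 4000 bp upstream of the H19 start) in the 11 peak lists, with Daxx-WT in blue and Daxx-KO or DKO in red; triangles mark matches to the Ctcf core (black) and Zfp57 (grey) motifs. Both ends carry a peak in the 4 LT-HSC lists and in Daxx-WT CMPs, and neither does in Daxx-KO CMPs, Daxx-KO GMPs, Daxx-WT KLS cells and DKO cells. These last lists hold 50590, 49677, 33325 and 22156 peaks, the fewest among the lists without a time label and among those with one.

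A second sperm-methylated region lies upstream of Meg3 and governs the Dlk1-Meg3 domain, from which Dlk1 is expressed on the paternal copy and Meg3, Rian and Mirg on the maternal copy. Between 10 and 16 kb upstream of Meg3 (chr12:109525001-109531001), Daxx-WT LT-HSCs without a time label had 2 peaks and Daxx-KO LT-HSCs had 1. All 4 CMP and GMP lists had 2 peaks and Daxx-KO KLS cells had 1, whereas both lists of LT-HSCs 3 d.p.i., Daxx-WT KLS cells and DKO cells had none. The table for Daxx-KO KLS cells listed a site at 109527251 to 109527850 with a log2 difference of -1.73. This region held 10 matches to TGCCGC and 3 to GGNGGCAG. Only 1 match of each motif was covered by a peak, in 4 lists and in 1 list.

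To ask how open the imprinted genes were, promoters were taken as 1000 bp on each side of any annotated start, and a peak overlapping by at least 1 bp was counted. Imprinted promoters were open most often in the LT-HSC lists without a time label and least often in the KLS lists. Among LT-HSCs without a time label, 31 of 39 members had a promoter peak in Daxx-WT and 29 in Daxx-KO cells, where 36.8% and 37.9% of all genes did. The CMP lists had 25 in Daxx-WT and 19 in Daxx-KO cells (35% and 32.4% of all genes), and the GMP lists had 24 and 22 (33.8% and 31.6%). LT-HSCs 3 d.p.i. had 24 in Daxx-WT and 26 in Daxx-KO cells (31.9% and 33.7% of all genes). KLS cells had 16 in Daxx-WT, 17 in Daxx-KO and 15 in DKO cells, where 29.9%, 32.4% and 25.3% of all genes had one. The 31 coding members can be set beside all 21938 coding genes. In Daxx-WT LT-HSCs 87.1% of coding members and 67.8% of coding genes had a promoter peak, in Daxx-WT KLS cells 45.2% and 58.7%, and in DKO cells 41.9% and 51.1%. Depth is not known for the lists without a time label, and lists of different depth hold different numbers of peaks.

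**Figure D2:**
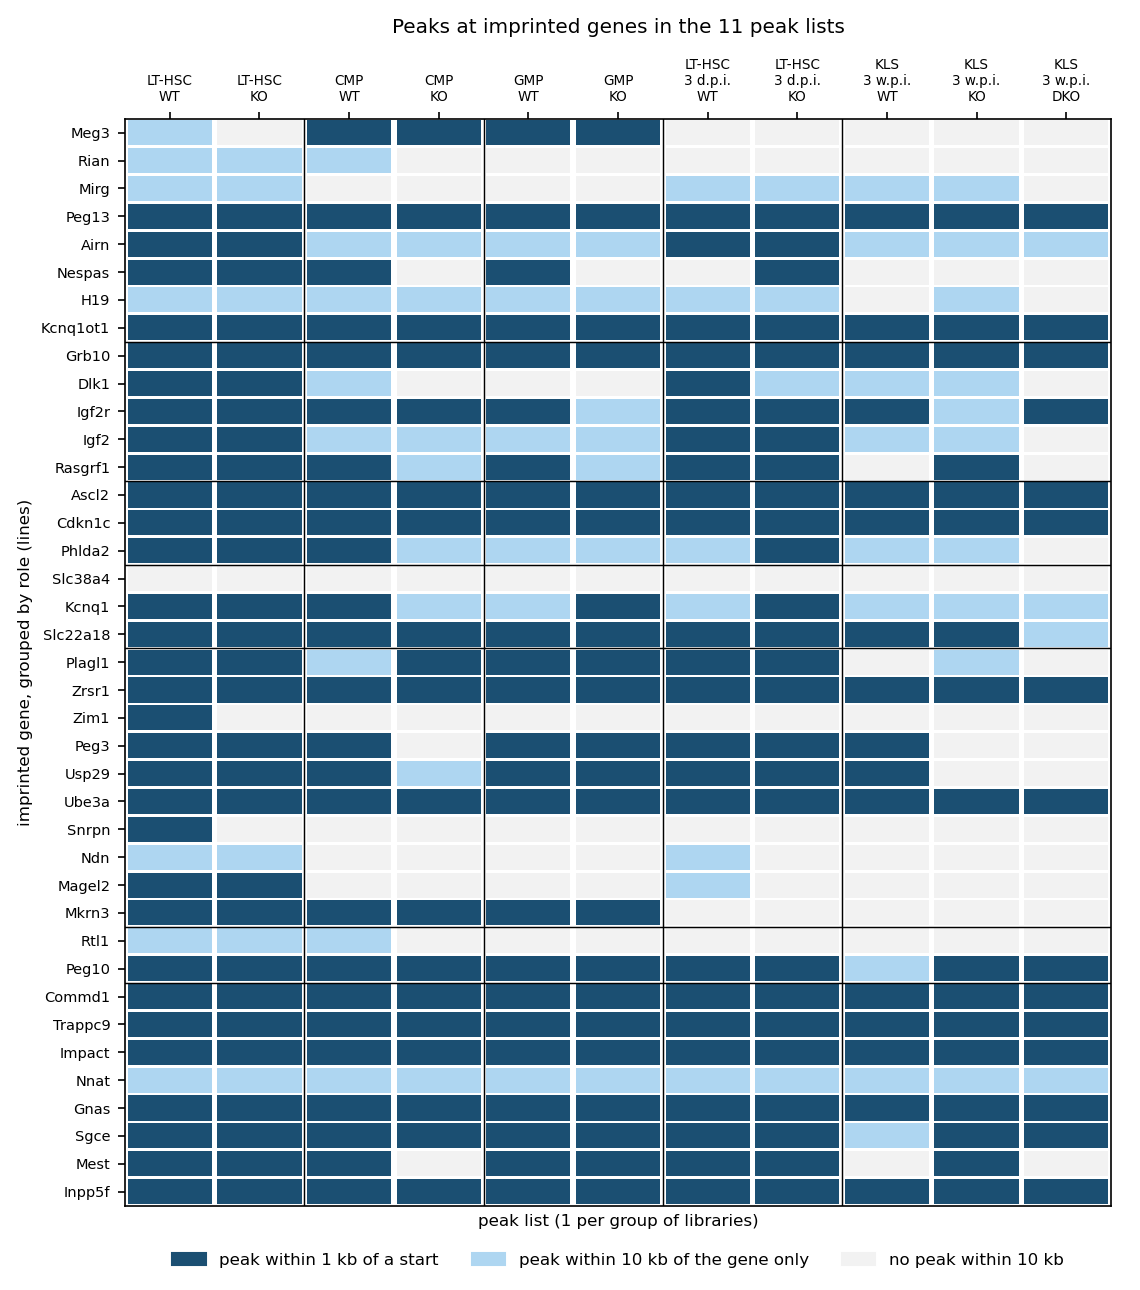
Peaks at each of the 39 imprinted genes (rows, grouped by role) in the 11 peak lists (columns): dark blue, a peak within 1 kb of a start; light blue, a peak only elsewhere within 10 kb of the gene; grey, neither. 12 genes are dark in every column and 7 in none. Daxx-WT LT-HSCs have 31 dark genes without a time label (65455 peaks) and 24 at 3 d.p.i. (36949 peaks). Daxx-WT KLS cells have 16 (33325 peaks). The lists without a time label hold positions alone and differ in kind from the 5 scored lists.

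A promoter peak was present in every list at 12 members and in no list at 7, and 20 members had one in some lists. Expressed as shares, 30.8% of members, 23.9% of all genes and 49.3% of coding genes had one in every list, and 17.9%, 59.2% and 28.6% had one in none. The 12 were Gnas, Ube3a, Inpp5f, Ascl2, Kcnq1ot1, Cdkn1c, Grb10, Commd1, Zrsr1, Trappc9, Peg13 and Impact. The 7 were Slc38a4, Nnat, H19, Rtl1, Rian, Mirg and Ndn. From general knowledge of the field, 16 members have a start in a region methylated in the egg, and the peaks counted can lie at another of their starts. Of these, 6 had a promoter peak in every list and 1 in none, with a median of 9 lists, and of the other 23 members 6 had one in every list and 6 in none, with a median of 4 lists.

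Among the 8 noncoding RNAs, which act largely in cis on neighbouring genes, 2 were open in every list and 3 in none. Kcnq1ot1, the antisense RNA that silences its neighbours including Cdkn1c on the paternal copy, and Peg13, a noncoding RNA inside Trappc9, had a promoter peak in all 11 lists. Airn, the antisense RNA that silences Igf2r, had one in the 4 LT-HSC lists and in none of the other 7. Meg3 had one in the 4 CMP and GMP lists and in none of the LT-HSC or KLS lists. These Meg3 peaks, between 109542716 and 109543255, lay at a start inside the gene and not over its first promoter. Nespas, antisense to the first exons of Gnas, had one in 5 lists, and H19, Rian and Mirg in none. The 250 bases before the RefSeq start (GRCm38.p6) of 3 of these RNAs are shown with CG in capitals, with 5, 2 and 10 CG. The Kcnq1ot1 promoter lay in a peak in every list and that of Airn in the LT-HSC lists, and the Meg3 promoter lay in no peak but overlapped a site of differential signal for LT-HSCs 3 d.p.i.
Kcnq1ot1 promoter, chr7:143296548-143296797, minus strand: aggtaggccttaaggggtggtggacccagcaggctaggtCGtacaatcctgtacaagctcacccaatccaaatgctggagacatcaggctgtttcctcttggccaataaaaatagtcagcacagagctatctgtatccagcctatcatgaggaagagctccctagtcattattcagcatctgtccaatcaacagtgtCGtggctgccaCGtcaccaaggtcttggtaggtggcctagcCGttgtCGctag
Airn promoter, chr17:12741061-12741310, plus strand: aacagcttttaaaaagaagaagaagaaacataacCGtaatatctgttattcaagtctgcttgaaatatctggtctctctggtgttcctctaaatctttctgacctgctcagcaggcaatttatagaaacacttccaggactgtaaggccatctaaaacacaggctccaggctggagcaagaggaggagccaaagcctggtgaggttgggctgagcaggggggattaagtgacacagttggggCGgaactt
Meg3 promoter, chr12:109540746-109540995, plus strand: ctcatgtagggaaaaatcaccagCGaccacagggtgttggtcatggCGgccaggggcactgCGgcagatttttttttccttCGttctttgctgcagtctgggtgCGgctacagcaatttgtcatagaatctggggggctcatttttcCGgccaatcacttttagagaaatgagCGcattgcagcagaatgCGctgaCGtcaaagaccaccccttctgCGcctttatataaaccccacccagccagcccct

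The 5 growth factor, receptor and adaptor genes differed in how widely they were open. Igf2, the paternally expressed insulin-like growth factor, had a promoter peak in the 4 LT-HSC lists alone, and Dlk1, a Notch-like ligand, in 3 of these 4. Igf2r, the receptor that clears Igf2, had one in 9 lists, all but those of Daxx-KO GMPs and Daxx-KO KLS cells. Grb10, an adaptor that dampens insulin and Igf1 receptor signals, had one in all 11, and Rasgrf1, a Ras exchange factor, in 7. Of the regulators of cell cycle and placental growth, Cdkn1c, the inhibitor p57 that keeps stem cells quiescent, and Ascl2, a transcription factor of the trophoblast, were open in every list. Phlda2, which limits placental growth, was open in 4 lists, 3 of them of LT-HSCs and 1 of Daxx-WT CMPs.

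The transporters differed among themselves. Slc38a4, an amino acid transporter of liver and placenta, had no peak within 10 kb in any list, whereas Slc22a18, an organic cation transporter, had a promoter peak in 10 lists and Kcnq1, a potassium channel, in 5. Between 3 and 17 peaks fell within 10 kb of Kcnq1, a gene of over 300 kb, and between 7 and 27 within 10 kb of Trappc9. Among the 10 genes for transcription, RNA and ubiquitin, Ube3a, a ubiquitin ligase, and Zrsr1, a splicing factor, were open in every list. The neighbours of Ube3a in the Prader-Willi domain had fewer peaks: Snrpn, a spliceosomal protein, had a promoter peak in Daxx-WT LT-HSCs alone, Ndn in no list, Magel2 in the 2 LT-HSC lists without a time label and Mkrn3 in the 6 lists without a time label. These 6 lists differ in kind from the 5 scored lists. The count for Ndn depends on the start used, since a peak in 3 LT-HSC lists overlapped its RefSeq promoter, over 1 kb inside the GENCODE gene. Plagl1, a zinc finger repressor of proliferation, was open in 7 lists, Peg3 and Usp29, which share 1 promoter, in 8, and Zim1 in 1. Of the 2 genes derived from retrotransposons, Peg10 was open in 10 lists, with the promoter it shares with Sgce, and Rtl1 in none. Among the other 8, Commd1, Trappc9, Impact, Gnas and Inpp5f were open in every list, Mest, a hydrolase, in 8, and Nnat in none.

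Loss of Daxx was compared list by list, with the members that had a promoter peak in 1 genotype alone. Imprinted promoters were lost more than gained in CMPs and gained more than lost in LT-HSCs 3 d.p.i., the directions that all genes took in those cells. LT-HSCs without a time label lost 2 (Zim1 and Snrpn) and gained 0 with 29 shared, and all genes lost 0.57% and gained 1.66%. In CMPs 7 members had a promoter peak in Daxx-WT cells alone (Nespas, Mest, Peg3, Usp29, Kcnq1, Phlda2 and Rasgrf1), against 3.15% of all genes, and 1 (Plagl1) in Daxx-KO cells alone, against 0.568%. GMPs lost 3 (Igf2r, Nespas and Rasgrf1) and gained Kcnq1, where all genes lost 2.7% and gained 0.558%. Nespas and Rasgrf1 thus had no promoter peak in the Daxx-KO list of either progenitor. These Daxx-KO lists hold fewer peaks, 50590 in CMPs and 49677 in GMPs against 66070 and 65306 in Daxx-WT. LT-HSCs 3 d.p.i. lost Dlk1 and gained 3 (Nespas, Kcnq1 and Phlda2), and all genes lost 0.698% and gained 2.42%. KLS cells lost 3 (Igf2r, Peg3 and Usp29) and gained 4 (Sgce, Peg10, Mest and Rasgrf1), and all genes lost 0.682% and gained 3.18%. DKO cells lost 3 (Peg3, Usp29 and Slc22a18) and gained 2 (Sgce and Peg10) relative to the same Daxx-WT list, where all genes lost 5.37% and gained 0.778%. There is 1 list per group, so none of these changes has an estimate of error. Of the 30 gains and losses, 20 were kept with promoters of 500 and 2000 bp on each side and with an overlap of 50% of the shorter interval. The exceptions concerned Mest, Peg3, Usp29, Sgce and Peg10, and in the scored lists none of the 16 gains and losses had a peak above its list's median fold enrichment. With the lists cut to the same number of peaks, 3 of these 16 were kept (Igf2r in Daxx-KO KLS cells, Sgce and Peg10 in DKO cells), and the other 13 had a peak in neither list.

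Mest, whose promoter carries an egg-methylated mark, was among the genes that came and went, with a peak in Daxx-WT but not Daxx-KO CMPs and in Daxx-KO but not Daxx-WT KLS cells. The 250 bases before its RefSeq start, with 14 CG in capitals, are shown because the edge of the peak moved here: a peak reached them in 3 LT-HSC lists and ended before them in the other 5 lists with a promoter peak.
Mest promoter, chr6:30737800-30738049, plus strand: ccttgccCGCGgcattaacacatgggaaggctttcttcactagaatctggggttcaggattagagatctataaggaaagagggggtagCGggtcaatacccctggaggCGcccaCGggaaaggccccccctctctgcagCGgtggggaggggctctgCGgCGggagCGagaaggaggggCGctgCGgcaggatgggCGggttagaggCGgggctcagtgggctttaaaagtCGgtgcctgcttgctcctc

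The widest promoter peak of each gene was compared between lists, and for all but Sgce and Peg10 at 3 d.p.i. and Commd1 in DKO cells the peaks compared overlapped. In LT-HSCs without a time label 21 of 29 shared promoter peaks were wider in Daxx-KO cells, with a median log2 ratio of 0.0655 against 0.03 over all genes. In CMPs 5 of 18 were wider and the median was -0.0787 (all genes -0.0421), and in GMPs 7 of 21 were wider and the median was -0.111 (all genes -0.0422). LT-HSCs 3 d.p.i. had 19 of 23 wider, with a median of 0.0361 against 0.0371. KLS cells had 9 of 13 wider in Daxx-KO (0.116 against 0.07) and 1 of 13 wider in DKO (-0.153 against -0.146). The widest shift was at Rasgrf1 in LT-HSCs 3 d.p.i., from 291 bp in Daxx-WT to 1984 bp in Daxx-KO cells. At Peg10 and Sgce, 2 peaks called in Daxx-WT LT-HSCs without a time label, the wider of 1065 bp, were 1 peak of 2154 bp in Daxx-KO cells. The single peak over Airn measured 1025 bp in Daxx-WT and 1612 bp in Daxx-KO cells there and 843 and 1687 bp at 3 d.p.i. In GMPs, the peak over Cdkn1c measured 552 bp in Daxx-WT and 947 bp in Daxx-KO cells.

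Peak strength was available for the 5 scored lists as the authors' fold enrichment over background. Imprinted promoters were weaker than other promoters: the median was 6.62 over 24 members and 8.873 over all genes in Daxx-WT LT-HSCs 3 d.p.i., and 5.751 and 7.218 in Daxx-WT KLS cells. Inpp5f, a phosphoinositide phosphatase, had the strongest promoter peak of the members in all 5 lists. Its fold enrichments were 16.57 in Daxx-WT and 17.25 in Daxx-KO LT-HSCs 3 d.p.i. and 11.51, 12.66 and 10.84 in Daxx-WT, Daxx-KO and DKO KLS cells. This peak lay over the first of its 8 annotated starts, which need not be the start in an egg-methylated region. At 3 d.p.i. 18 of 23 shared promoters had a higher fold enrichment in Daxx-KO LT-HSCs, with a median log2 ratio of 0.128, and 74.2% of all genes did, with a median of 0.0842. Kcnq1ot1 rose there from 9.8 to 12.32, Gnas from 7.555 to 9.368 and Rasgrf1 from 2.739 to 4.642. In KLS cells all 13 shared promoters were higher in Daxx-KO, with a median log2 ratio of 0.252, and 88.8% of all genes were, with a median of 0.211. With the mean over summits in place of the highest summit of each peak, 9 of these 13 were higher, and 16 of the 23 at 3 d.p.i. In DKO cells 2 of 13 were higher, with a median of -0.361, and 14.5% of all genes were, with a median of -0.241. Kcnq1ot1 was at 8.688 in Daxx-WT and 5 in DKO cells. At Gnas, which encodes the stimulatory G protein subunit, and at Impact the strongest peaks of the 2 lists lay at different starts, and the other 11 shared promoters, compared peak with overlapping peak, had a median of -0.315 with 2 higher. Grb10 and Igf2r were the 2 that were higher in DKO cells, with 5.549 against 5.357 and 5.586 against 5.056. The lists differ in depth, and a fold enrichment has no error here.

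**Figure D3:**
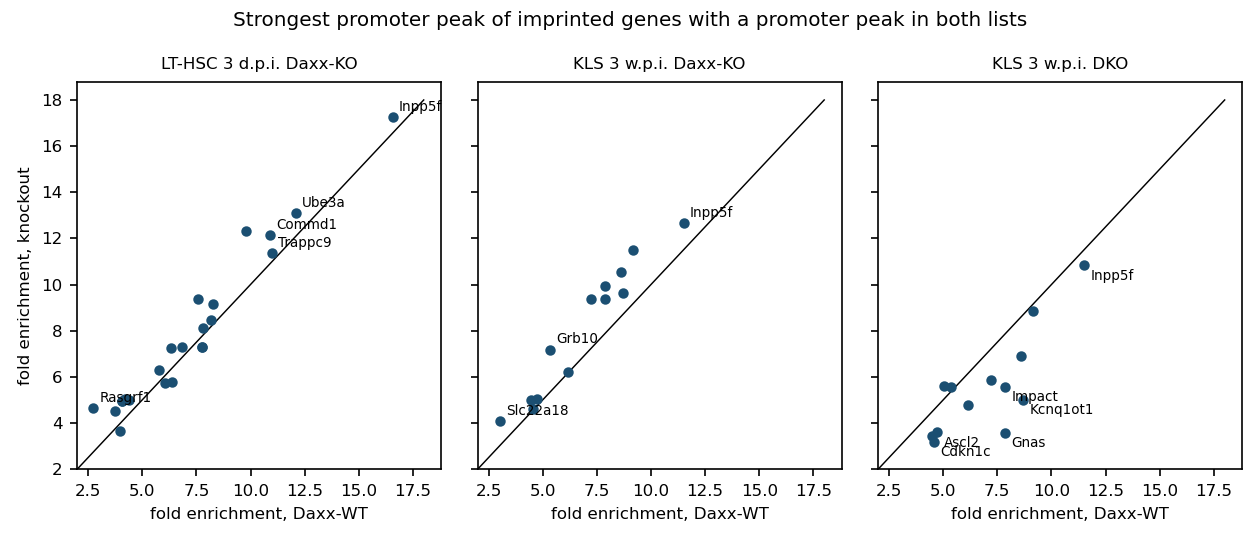
Fold enrichment of the strongest promoter peak in the knockout list (vertical) against the Daxx-WT list (horizontal) for imprinted genes with a promoter peak in both, with the line of equality; 1 point per gene. 18 of 23 points lie above the line in LT-HSCs 3 d.p.i., 13 of 13 in Daxx-KO KLS cells and 2 of 13 in DKO cells; with the mean over summits the first 2 counts are 16 and 9.

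The tables of sites allow a comparison library by library. They hold windows selected for a difference between these same libraries, so the values describe the sites and are no independent test. The libraries of the 2 genotypes did not overlap at any of the 36, 31 and 105 member sites, so separation marks out no single site. The fit by limma with Benjamini-Hochberg adjustment over all windows called 0 of the 36 member sites in LT-HSCs 3 d.p.i. and 0 of 31 in Daxx-KO KLS cells, with smallest adjusted p-values of 0.301 and 0.284, and it called 0% of all listed sites in each of the 2 tables. At an unadjusted p under 0.05 the counts were 35 and 30, where 96% and 96.8% of all listed sites were. With a pseudocount of 5 the Daxx-KO KLS table gave 5 of 31, and 25.2% of all its sites. In DKO cells it called 90 of 105 member sites, 77 of them higher and 13 lower in DKO, and 82.2% of all listed sites. Every DKO site received the same standard error of 0.359, since the spread was pooled over all sites. With either DKO library left out no site was called, and after rescaling each library to its mean reads per window 31 were called, 7 of them higher and 24 lower, and 33.7% of all listed sites. An exact two-sided permutation test of 1 site cannot go below 0.1 with 3 against 2 libraries, nor below 0.333 with 2 against 2.

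At least 1 listed site lay within 10 kb of 29 of the 39 members. The 10 without one were Plagl1, Rtl1, Slc38a4, Mest, Zim1, Ube3a, Snrpn, Ndn, Magel2 and Mkrn3, which include the 5 members of the Prader-Willi domain. Sites in all 3 tables were found at 12 members (Grb10, Commd1, Trappc9, Igf2r, Gnas, Sgce, Igf2, Kcnq1, Kcnq1ot1, Cdkn1c, Slc22a18 and Rasgrf1). The windows of the members, 3.019 Mb in all, held 11.9 sites per Mb at 3 d.p.i., 10.3 for Daxx-KO KLS cells and 34.8 for DKO cells, against 6.08, 8.84 and 26.2 in the windows of all genes. At 3 d.p.i. 4 members had a site that was higher in Daxx-KO cells and 20 one that was lower, where 7.44% and 15.2% of all genes had such a site. In Daxx-KO KLS cells the numbers were 4 higher and 15 lower (6.28% and 24.3% of all genes), and in DKO cells 16 higher and 15 lower (36.6% and 22.6%). Windows of long genes such as Trappc9 and Kcnq1 hold more sites, and genes that share a window share its sites.

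Direction split by whether a site overlapped a peak of the cells compared. At 3 d.p.i. 5 of 8 member sites in peaks were higher in Daxx-KO cells and 3 of 28 outside peaks, and over all listed sites 66.3% and 14% were. In Daxx-KO KLS cells 5 of 7 in peaks and 0 of 24 outside were higher (61% and 8.6% over all listed sites). DKO cells showed the opposite, with 3 of 17 in peaks and 77 of 88 outside peaks higher (30.2% and 88.2% over all). Mean reads per window were 9.49, 4.21 and 9.59 in the Daxx-KO libraries at 3 d.p.i., 8.13, 4.54 and 5.59 in those of KLS cells and 9.98 and 16 in the DKO libraries, against 7.45 to 9.6 in the Daxx-WT libraries, and the part of depth in the split was not tested. Rescaling to these means moved the median log2 difference of all listed sites by 0.33, 0.47 and -0.67 and turned the direction of none of the 172 member sites.

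**Figure D4:**
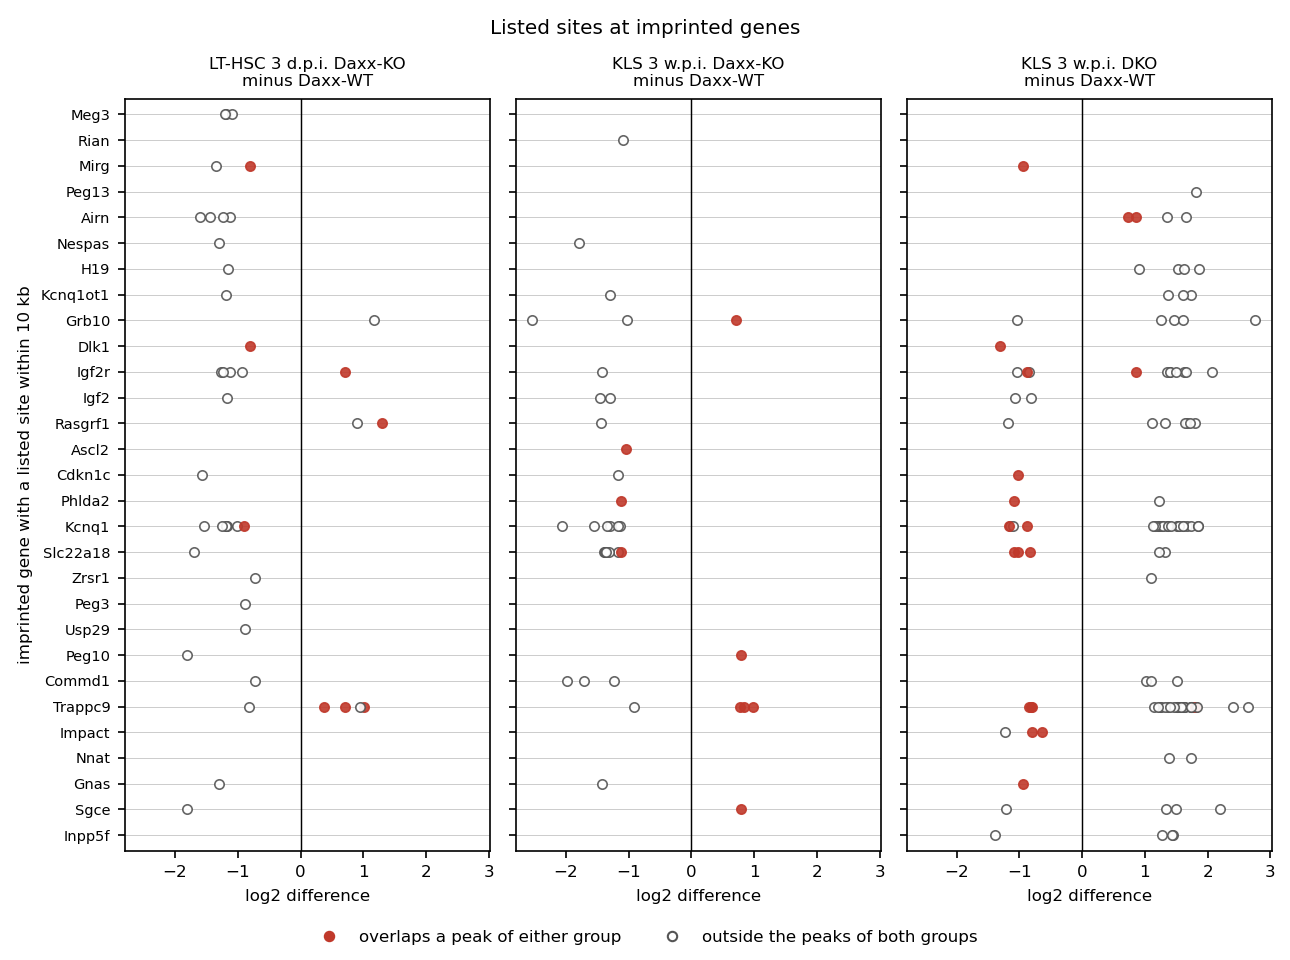
Log2 difference (knockout minus Daxx-WT) of every listed site within 10 kb of an imprinted gene (rows) in the 3 tables (panels); red, sites that overlap a peak of either group, and open circles, sites outside the peaks of both. Open circles lie mostly left of 0 in the 2 Daxx-KO panels and mostly right of 0 in the DKO panel, and a site near 2 genes is drawn at both.

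LT-HSCs 3 d.p.i. had 7 sites over imprinted promoters, and all 7 were lower in Daxx-KO cells. Over all listed sites 29.1% were higher, and 14% of those outside peaks. Of the 7, only the site at Dlk1 overlapped a peak. The largest of the 7 was at Mirg, a host of microRNAs at the end of the Dlk1-Meg3 domain, over an internal start at 109747501 to 109748100. It had 9.18, 9.54 and 8.45 scaled reads in the Daxx-KO against 27.04 and 22.51 in the control libraries, a log2 difference of -1.35 ± 0.22 (SE). Meg3, the tumour-suppressive RNA of the same domain, had 29.37, 28.63 and 23.22 against 68.74 and 49.7 over exon 1 (chr12:109540751-109541650, overlapping the promoter shown above), a difference of -1.09 ± 0.25. Dlk1 had 43.13, 37.22 and 35.89 against 64.23 and 72.21 over exon 2, a difference of -0.80 ± 0.22, in the peak that the Daxx-KO list lacked. The domain also had 2 further Meg3 sites (-1.19 and -1.21) and 1 at the end of Mirg (-0.80), so all 6 of its sites were lower without Daxx. At each of the 3 promoters every Daxx-KO library lay below both Daxx-WT libraries, and the 2 genotypes were apart at all 36 member sites.

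A site over exon 2 of Nespas, within 1000 bp of starts of both Nespas and Gnas, had 11.93, 8.59 and 15.83 scaled reads in Daxx-KO against 38.31 and 24.38 in Daxx-WT LT-HSCs 3 d.p.i., a log2 difference of -1.31 ± 0.32. It lay outside the Nespas promoter peak that the Daxx-KO list alone held in these cells. H19, over exon 1, had 13.76, 8.59 and 15.83 against 28.17 and 29.07 (-1.15 ± 0.29). Igf2, 535 bp upstream of its first exon, had 19.27, 11.45 and 12.67 against 30.42 and 35.64 (-1.17 ± 0.28). H19 and Igf2, neighbours that share enhancers, thus went in the same direction. Zrsr1, which lies in an intron of Commd1, had 33.95, 36.27 and 36.95 against 59.72 and 60.02 (-0.73 ± 0.21), a site beside its promoter peak. None of these sites had an adjusted p below 0.301.

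Higher sites at 3 d.p.i. were found at 4 members, outside promoters. Rasgrf1 gained the most, at intron 5 (chr9:89958551-89959750), with 166.1, 101.2 and 98.18 scaled reads in Daxx-KO against 52.96 and 42.2 in Daxx-WT LT-HSCs, a log2 difference of 1.30 ± 0.30. A peak was called there in Daxx-KO cells alone, and a neighbouring site in the same intron differed by 0.90. Grb10 had 29.37, 33.41 and 27.45 against 15.78 and 10.32 in intron 1 (1.17 ± 0.26). Trappc9, a subunit of a vesicle tethering complex, had 4 higher sites, among them one in intron 16 with 163.3, 162.3 and 111.9 against 85.64 and 58.14 (1.01 ± 0.28), and 1 lower site (-0.82). Igf2r had 1 higher site, over exon 21 (0.70 ± 0.25), in a peak called in Daxx-KO cells alone, beside 4 lower ones.

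Beyond promoters, 7 sites of Kcnq1 were all lower at 3 d.p.i., from -0.90 to -1.54, where 14% of all listed sites outside peaks were higher. The lowest, in intron 15, had 20.19, 17.18 and 21.11 scaled reads in Daxx-KO against 61.98 and 55.33 in Daxx-WT LT-HSCs (SE 0.225). Airn had 4 lower sites, down to -1.60 at 12831951 to 12832600, where the Daxx-KO libraries had 10.09, 6.68 and 9.5 and the Daxx-WT libraries 28.17 and 28.13. Cdkn1c had 1 lower site, 9189 bp downstream, with 6.42, 7.64 and 8.45 against 27.04 and 21.57 (-1.57 ± 0.24). Slc22a18 differed by -1.69 ± 0.40 in intron 5. Peg3 and Usp29 shared a site of -0.88 ± 0.25 in Peg3 intron 1, and Sgce and Peg10 one of -1.82 ± 0.62 in Sgce intron 1, whose 3 Daxx-KO libraries were spread from 1.91 to 12.85. These sites lay outside peaks, apart from 1 in intron 11 of Kcnq1.

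In Daxx-KO KLS cells, 3 sites lay over imprinted promoters, 1 higher and 2 lower, where 19.1% of all listed sites were higher. The promoter between Sgce, the epsilon-sarcoglycan of muscle and brain, and Peg10, a placental gene of retrotransposon origin, had 51.22, 61.24 and 47.98 scaled reads in Daxx-KO against 31.02 and 29.8 in Daxx-WT cells, a log2 difference of 0.79 ± 0.29. It is the promoter at which the Daxx-KO list had gained a peak. Ascl2 had 36.74, 32.37 and 31.98 against 66.59 and 74.51 over its first exon, a difference of -1.04 ± 0.28, although its promoter had a peak in both lists. Slc22a18 had 28.95, 14 and 31.04 against 65.68 and 59.61 just upstream of its start (-1.39 ± 0.38). In all 3 cases, as at all 31 member sites, the 5 libraries separated by genotype, and the adjusted p-values were 0.625, 0.287 and 0.293.

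Elsewhere in KLS cells, higher sites were restricted to Grb10 intron 2 and Trappc9 intron 16. Grb10 had 79.05, 82.23 and 92.19 scaled reads in Daxx-KO against 53.82 and 48.14 in Daxx-WT cells (0.72 ± 0.28), in a peak of both lists. The same gene had the lowest member site in these cells, 3108 bp downstream, with 5.57, 4.37 and 1.88 against 24.63 and 27.51 (-2.53 ± 0.39). Trappc9 had 3 higher sites in intron 16, of 0.98, 0.77 and 0.85. The lower sites were spread over 15 members, with 6 each at Kcnq1 (-1.13 to -2.06) and Slc22a18 (-1.13 to -1.39), 3 at Commd1 (-1.23 to -1.99) and 2 at Igf2 (-1.29 and -1.46). Nespas differed by -1.80 ± 0.33 at a site 7187 bp downstream, with 7.79, 4.37 and 4.7 against 20.07 and 22.93, and Gnas by -1.42 ± 0.34 in intron 4. Phlda2 shared with Slc22a18 a site of -1.13 ± 0.33 in a peak of both lists. Rian, a host of small nucleolar RNAs, had its only listed site here, at -1.08 ± 0.30, with 12.25, 15.75 and 16.93 against 35.58 and 29.8.

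In DKO cells, 14 sites lay over imprinted promoters, 11 lower and 3 higher. Over all listed sites 72.1% were higher, and 30.2% of those in peaks. Inpp5f had 19.09 and 39.35 scaled reads in DKO and 79.87 and 68 in Daxx-WT cells in intron 1, beside the strong peak described above, a log2 difference of -1.39 (adjusted p = 0.00208, limma). Rasgrf1, 808 bp upstream of its start, had 18.03 and 31.85 against 55.02 and 57.03 (-1.19, adjusted p = 0.0122, limma). Kcnq1 exon 1 had 15.91 and 25.3 against 46.15 and 44.97 (-1.14, adjusted p = 0.018, limma). Both DKO libraries lay below both Daxx-WT libraries at each of the 3 promoters, and the second DKO library was closer to Daxx-WT than the first. The 2 genotypes were apart at all 105 member sites. Grb10 had 30.75 and 26.23 against 56.8 and 62.52 (-1.04, adjusted p = 0.0402, limma), and Igf2 had 25.45 and 16.86 against 47.04 and 42.78 at 1 of its 2 promoter sites (-1.08, adjusted p = 0.0306, limma). Impact, an inhibitor of the kinase Gcn2 on chromosome 18, had 3 lower sites, of which the one over exon 10, with 20.15 and 35.6 against 63.9 and 64.71, passed the limma threshold (-1.23, adjusted p = 0.00859). The sites at Gnas (-0.95) and Slc22a18 (-0.83), both in a peak of Daxx-WT alone, the other Igf2 site (-0.81) and the other 2 at Impact did not pass it.

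The 3 promoters with a higher site in DKO cells were those of H19, Zrsr1 and Trappc9. H19 had 57.26 and 57.15 scaled reads in DKO and 28.4 and 31.81 in Daxx-WT cells over exon 1, a log2 difference of 0.91 (adjusted p = 0.113, limma). Zrsr1 had 37.11 and 47.78 against 17.75 and 20.84 (1.09, adjusted p = 0.0273, limma), and an internal start of Trappc9 had 56.2 and 61.83 against 25.74 and 26.32 (1.15, adjusted p = 0.017, limma). All 3 sites lay outside peaks. After rescaling, their differences were 0.23, 0.42 and 0.47.

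**Figure D5:**
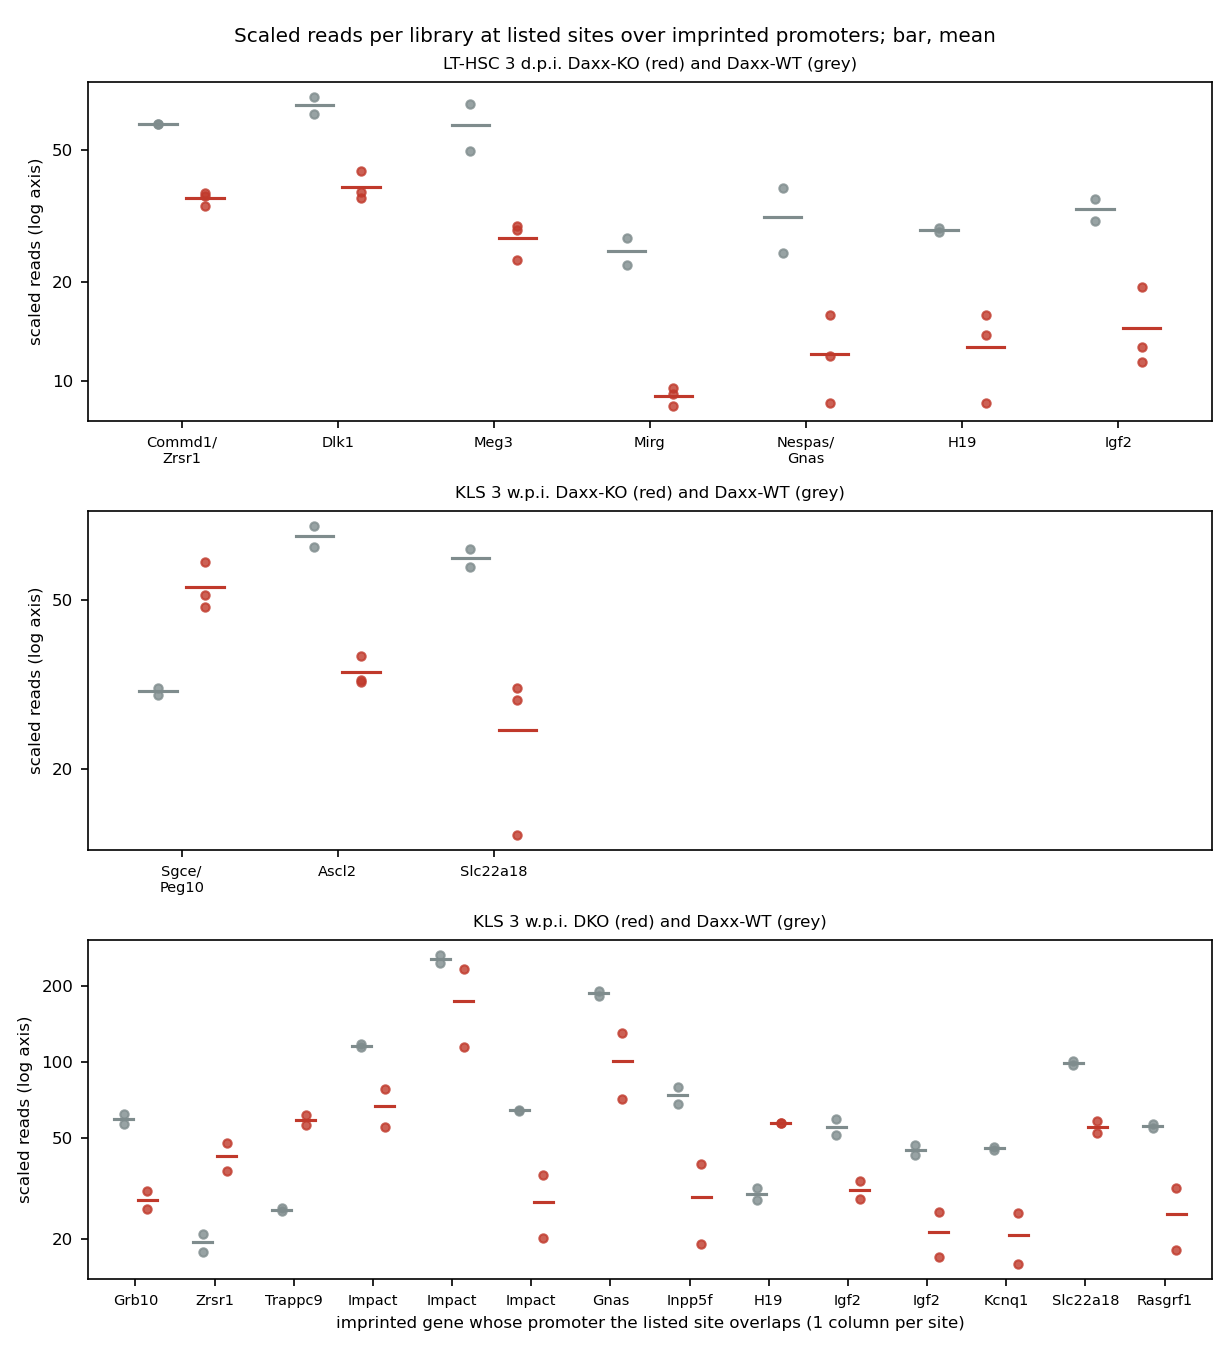
Scaled reads per library (log axis) at listed sites over imprinted promoters in the 3 tables (panels), with knockout libraries in red, Daxx-WT libraries in grey and bars at the means. All 7 sites are lower in Daxx-KO LT-HSCs 3 d.p.i., 2 of 3 in Daxx-KO KLS cells and 11 of 14 in DKO cells. Of all listed sites, 29.1%, 19.1% and 72.1% are higher.

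Away from promoters, DKO cells had many higher sites within long imprinted genes, and over all listed sites 88.2% of those outside peaks were higher. After rescaling, 7 member sites in place of 77 were called as higher by limma. Trappc9 had 28 sites, 25 of them higher, up to 2.65 in intron 17, where the DKO libraries had 28.63 and 41.22 scaled reads and the Daxx-WT libraries 2.66 and 7.68 (adjusted p = 3.03e-10, limma). Kcnq1 had 22 sites, 18 higher and 4 lower. The 2 of these in peaks that only Daxx-WT cells had, both in intron 15, were lower, with 102.9 and 122.7 against 304.4 and 209.5 at the larger (-1.16, adjusted p = 0.0154, limma). Igf2r had 8 higher and 3 lower sites and Rasgrf1 6 higher and 1 lower. The single highest site was over Grb10 exon 15, with 24.39 and 34.66 against 2.66 and 4.39 (2.76, adjusted p = 4.54e-11, limma). Within the Dlk1-Meg3 domain both sites were lower and lay in peaks that only Daxx-WT cells had: Dlk1 had 39.24 and 59.96 against 128.7 and 116.3 at 5673 bp upstream (-1.32, adjusted p = 0.0041, limma), and Mirg had 60.44 and 47.78 against 106.5 and 103.1 (-0.95, adjusted p = 0.082, limma).

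A site upstream of the quiescence gene Cdkn1c and a site within Slc22a18 were lower in DKO cells as well. At 4701 bp upstream of Cdkn1c the DKO libraries had 67.87 and 73.08 scaled reads and the Daxx-WT libraries 158.8 and 131.6 (-1.03, adjusted p = 0.0455, limma). In intron 8 of Slc22a18, near Phlda2, they had 80.59 and 91.81 against 195.2 and 173.3 (-1.09, adjusted p = 0.0282, limma). Both sites coincided with peaks of Daxx-WT cells that the DKO list lacked. Nnat, which had no promoter peak in any list, had 2 higher sites in DKO cells (1.38 and 1.73), and Peg13 had 1 (1.81). Of the 3 higher sites in peaks, 1 was in Trappc9 intron 8 (1.79) in a peak that only DKO cells had, and 2 were over Airn, with 248.1 and 213.6 against 140.2 and 137.1 at the larger (0.73, adjusted p = 0.384, limma), and after rescaling the Airn sites differed by 0.04 and 0.17.

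A few places were listed in more than 1 table. Intron 16 of Trappc9 was the only one listed in all 3, at 72865201 to 72866150 in LT-HSCs 3 d.p.i. and at overlapping positions in KLS cells. LT-HSCs 3 d.p.i. had 125.7, 143.2 and 121.4 scaled reads in Daxx-KO against 74.37 and 84.4 in Daxx-WT cells (0.70). Daxx-KO KLS cells had 91.3, 165.3 and 117.6 against 76.63 and 65.34 (0.77), and DKO cells had 41.36 and 35.6 against 72.77 and 63.61 (-0.81). The place was thus higher in the Daxx-KO and lower in the DKO libraries, and the 2 KLS comparisons share their Daxx-WT libraries. The central 200 bases of the 500 bp that all 3 sites share are shown with their 4 CG in capitals.
Trappc9 intron 16, chr15:72865651-72865850, plus strand: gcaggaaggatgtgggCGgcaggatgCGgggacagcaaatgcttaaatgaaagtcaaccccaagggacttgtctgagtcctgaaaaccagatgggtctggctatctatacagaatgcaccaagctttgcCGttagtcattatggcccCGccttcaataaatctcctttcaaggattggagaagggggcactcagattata

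Other places were shared by LT-HSCs 3 d.p.i. and DKO cells, which have no library in common. At the end of Mirg the differences were -0.80 and -0.95. The other 5 had opposite signs, lower in Daxx-KO LT-HSCs and higher in DKO cells at intron 2 of Igf2r inside Airn (-1.13 and 1.66), at H19 exon 1 (-1.15 and 0.91, sites that share only 50 bp) and at Kcnq1 exon 5 (-1.18 and 1.52) and intron 15 (-1.54 and 1.12), and the reverse at Igf2r near exon 21 (0.70 and -1.04). Daxx-KO and DKO KLS cells, which share the Daxx-WT libraries, both had a site in Trappc9 intron 16 near 72858901 (0.98 and 1.25), one at the Slc22a18 start (-1.39 and -0.83), one around exon 3 of that gene (-1.38 and 1.32) and one between Slc22a18 and Phlda2 (-1.13 and 1.23). The last 3 pairs share 250, 200 and 100 bp.

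The promoters of the members were compared by sequence with all promoters of the RefSeq table (300 bases each, 250 before and 50 after the start), in which 29 of the 39 members had an entry. All 45 promoters of these members held a median of 13 CG and 55.7% GC, and all 32851 promoters held a median of 7 CG and 52.7% GC. A match to TGCCGC on either strand was found in 22.2% of the 45 and in 11.6% of all promoters. GGNGGCAG was found in 20% and in 12.6%, and where N is C the 2 motifs overlap on opposite strands. With 1 promoter a gene, the one in a peak in most lists, the median was 15 CG, and the 5 members whose promoter lay in a peak in every list (Commd1, Gnas, Inpp5f, Kcnq1ot1 and Ube3a) held neither motif. Such matches are descriptions of the letters and not of binding.

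Genes linked to the upkeep or removal of imprints were also open. Of 17 such genes (among them Zfp57, Zfp445, Trim28, Setdb1, the Dnmt and Tet genes, Ctcf, Hira and the H3.3 genes H3f3a and H3f3b), 14 to 17 had a promoter peak, where 25.3% to 37.9% of all genes and 51.1% to 68.9% of coding genes did. The exceptions were Dppa3, which protects maternal marks in the zygote, Zfp57 and, in DKO cells, Tet1. Zfp57 had no promoter peak in Daxx-KO CMPs, Daxx-KO GMPs, Daxx-WT KLS cells and DKO cells. The same 4 lists had no peak in the H19 control region, a coincidence noticed after the values were seen and not tested. They held 50590, 49677, 33325 and 22156 peaks, the fewest among the lists without a time label and among those with one. Of the 17 genes, 4 had a higher and 4 a lower site at 3 d.p.i., 3 had a higher and 10 a lower site in Daxx-KO KLS cells, and for DKO cells the numbers were 14 and 5. The shares over all genes were those given above for the members, 7.44% and 15.2%, 6.28% and 24.3%, and 36.6% and 22.6%.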

How the data were processed

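ATAC-seq peak lists and tables of sites from 24 libraries in 11 groups were used, with groups taken from the titles. The authors deposited 11 peak lists on mm10, 1 per group, so that lists have no spread between libraries. Of these, 6 hold positions alone, and 5 are conservative lists by irreproducible discovery rate with a score for every peak (415 or more) and a ratio to background (fold enrichment), both as deposited. These 5 also hold −log10 p-values and q-values, not used here. An interval repeated for several summits was counted once, with its highest fold enrichment. The authors also deposited 3 tables made with diffReps 1.55.6. Per the file headers, windows spanned 600 bp at steps of 50 bp, fragments were set to 100 bp, the negative binomial p-value cutoff was 0.0001, and a constant scaled each library's reads. These other values per library (scaled reads) are packed in 1 cell per group. The tables' own log2 fold changes and p-values were not used. The submitters' processing notes name CASAVA 1.8.4, cutadapt 1.13, STAR 2.5.3 and bedtools. Read filters and total depths are not given in the sources used here.

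Genes and starts were those of GENCODE release M 21, and promoter sequences were those of RefSeq (GRCm38.p6), with 29 of 39 members matched by symbol. Sites were fitted with limma 3.58.1 (R 4.3.3) on log2(scaled reads + 1), two-sided, with Benjamini-Hochberg adjustment over the 413247, 407030 and 446463 windows the headers report as tested and a threshold of 0.05. The step was tested on simulated data. Differences are knockout minus Daxx-WT on that log2 scale, which understates changes of low values, with the standard error after ±. The study describes the libraries as biological replicates. Low values vary with read counting. Python 3.11.15, numpy 2.4.6, pandas 2.3.3 and matplotlib 3.10.9 were used. The rule for named sites took, for each member and table, the site of largest absolute difference and every site over a promoter, a control region or a peak of the cells compared. Sites named beyond this rule, and those listed in more than 1 table, were chosen after their values were seen. The members and lists were chosen with earlier results of these data known. Alternatives were another pseudocount, a filter on low values, rescaling, adjustment over listed sites, left-out libraries, a replicate block, and other flanks, promoter widths, overlaps and peak cutoffs, the mean over summits in place of the highest, and, chosen after seeing the data, a comparison of overlapping peaks alone.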

Additional observations from a re-analysis of the deposited data

Results flagged for a closer look

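Listed sites that overlapped by 650 bp in intron 16 of Trappc9 went in opposite directions in the 2 Daxx-KO comparisons, which have no library in common. In LT-HSCs 3 d.p.i. the site starting at 72898801 was higher in Daxx-KO cells by 1.01 on the log2 scale, with 163.3, 162.3 and 111.9 scaled reads against 85.64 and 58.14. In KLS cells at 3 w.p.i. the site starting at 72899201 was lower, with 33.4, 24.49 and 19.75 against 53.82 and 43.56, a log2 difference of -0.91. Every Daxx-KO library lay above both Daxx-WT libraries in the first case and below both in the second. Such separation was found at all 36 and all 31 member sites of the 2 comparisons. The difference between the comparisons was not tested, and cell population, Cre line, inducer and time differ between them.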

How the results depend on the processing

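No direction changed at any of the 172 member sites under any alternative. The libraries of the 2 genotypes were apart at all of these sites, so among the alternatives only rescaling could have turned a direction. Counts of called sites did change. Adjusted over the listed sites alone, 35 sites were called in LT-HSCs 3 d.p.i. and 30 for Daxx-KO KLS cells, against 0 over all windows, a setting that called 95.8% and 96.5% of all listed sites, and a pseudocount of 5 gave 5 in Daxx-KO KLS cells (25.2% of all). In DKO cells rescaling gave 31 (7 higher, 24 lower; 33.7% of all) in place of 90 (77 and 13), and leaving out single libraries gave 0 to 68, with 0 without replicate 1 or replicate 2 of DKO and 63 and 68 without replicate 1 and replicate 2 of Daxx-WT. The range was 0 to 0 in the other tables. With a library left out, a lone library of a group is assumed to vary like the others. The replicate block gave 3 calls in Daxx-KO KLS cells (13.3% of all) and changed no count in DKO cells (90). Same-numbered KLS libraries deviated together with correlations of 0.00844 and 0.0517 in the Daxx-KO table and -0.00308 in the DKO table. The deviations of the 2 Daxx-WT libraries from their mean mirror each other, and the sites were selected on these same libraries. These values therefore cannot show whether same-numbered libraries share more than a number. No paired analysis was possible for LT-HSCs 3 d.p.i. because the columns carry no replicate numbers. Of 784 values of 85 named sites under alternatives, 625 kept their side of the threshold, 85 lost and 74 gained it. Tests on recovered whole reads with edgeR and DESeq2 were not run, although scaled reads times their constant came within 0.15 of a whole number for 100% of low values.

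Members with a higher site at 3 d.p.i. numbered 9 with 50 kb flanks in place of 4, and with a lower site 3 in peaks in place of 20. In Daxx-KO KLS cells 50 kb gave 7 higher in place of 4, and lower sites were found at 9 members with no flank, 23 with 50 kb and 3 in peaks, in place of 15. In DKO cells 50 kb gave 25 higher and 23 lower in place of 16 and 15, and peaks gave 3 higher. With peaks above the median fold enrichment alone, promoters of 14 and 13 members had a peak in Daxx-WT and Daxx-KO LT-HSCs 3 d.p.i., and of 8 in each KLS list. With as many peaks in every scored list as in the shortest, Daxx-KO LT-HSCs 3 d.p.i. had 13 such members, Daxx-WT KLS cells 10 and Daxx-KO KLS cells 8. The peak lists without a time label have no known depth, and the tables' windows hold few reads, which limits small differences at single sites.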
